A study of Arabidopsis thaliana with 8 samples.

Results

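Genes for subunits of the nuclear RNA polymerases and for LSM proteins were examined in germinating Arabidopsis thaliana seedlings. Members were the genes whose symbol in the platform annotation begins NRPA, NRPB, NRPC, NRPD, NRPE or LSM, taken from probe sets that the annotation assigns to 1 gene alone. This gave 19 genes, each with 1 probe set, among 13072 probe sets with 1 gene and 22246 in all. They were 12 polymerase genes, 6 genes for Sm-like proteins and LSMT-L, which shares only the letters: its annotated name is a lysine methyltransferase-like protein. A probe set that pairs NRPB3 with NRPE3B holds 2 genes and was left out.

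Total RNA of seedlings was measured on 8 arrays in 4 groups of 2, and values are log2 expression from RMA. The groups were the mutant ahg1-1 on abscisic acid (ABA), the mutant ahg3-1 on ABA, the Columbia wild type on ABA, and the Columbia wild type without ABA. Both mutants are labelled ABA hypersensitive and carry mutations in related but separate genes for PP2C protein phosphatases, which restrain ABA signalling. Every group had 4 days of stratification at 4 °C, then 2 days of germination at 23 °C (16 h light, 8 h dark) on MS plates with 2% sucrose. ABA, where given, was at 0.5 uM. No mutant was measured without ABA, so the mutant comparisons hold on ABA medium only. The transcripts of the mutated genes are not analysed here.

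Pol I makes the precursor of the large ribosomal RNAs, Pol II makes messenger RNAs, and Pol III makes transfer RNAs and other short RNAs. Pol IV and Pol V are plant enzymes derived from Pol II that make the RNAs used to direct DNA methylation, and several small subunits are shared between enzymes. LSM proteins form rings on RNA: the cytoplasmic ring holds LSM1 and promotes decapping of messenger RNAs, and the nuclear ring holds LSM8 and stabilises the U6 RNA of the spliceosome. LSM3 and LSM6 belong to both rings. A mutation in SAD1, the Arabidopsis gene for LSM5, is known to make plants hypersensitive to ABA. SAD1 is not analysed here.

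Arrays that share a replicate number deviated alike across the groups, and the labels do not say what a number stands for. Values are therefore also given within each number. Array medians lay between 5.905 and 5.929 in number 1 and between 5.954 and 5.973 in number 2. Marker genes of the stage of germination moved with ABA. Of 6 dry seed and maturation genes 5 passed as higher in wild type on ABA, with a mean level of 9.29 to 10.26 against 4.71 to 5.26 without ABA. Of 10 greening genes 3 passed as lower (limma, or all 10 once the replicate number was added as a block), with a mean level of 7.56 to 9.63 on ABA against 11.25 to 11.85 without it. On ABA the maturation genes averaged 10.46 to 11.03 in ahg1-1 and 10.23 to 10.43 in ahg3-1. The greening genes averaged 6.82 to 7.58 in ahg1-1 and 7.32 to 7.83 in ahg3-1. None of these 6 maturation and 10 greening genes passed in a comparison with a mutant, with or without the block. The range of wild type on ABA overlapped that of ahg3-1 for both lists, and that of ahg1-1 for the greening genes. The part of these marker differences in the results on members was not tested. Of seed coat and root hair markers 1 and 2 genes were measured, and 0 passed in any comparison. Endosperm markers had 0 genes among the probe sets with 1 gene. A stage difference and an effect of ABA cannot be told apart. In bulk RNA, fewer cells of a type and less RNA per cell cannot be told apart either.

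ABA was the first comparison, and the question was how wild-type seedlings on ABA differed from those without it. Of the 19 members, LSM3A, LSM3B and LSM6A had the largest positive differences. None of the 19 passed over all probe sets (limma, adjusted p between 0.11 and 0.99), where 1.37% of all probe sets did. At an unadjusted p below 0.05 stood 3 members, LSM3A, LSM3B and NRPD7, against 12.8% of all probe sets. With the replicate number as a block LSM3A and LSM3B passed as higher (limma, adjusted p = 0.019 and 0.049), 2 of 19 where 12.6% of all probe sets passed in either direction, so the share of members called was near the background.

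LSM3A and LSM3B encode the LSM3 subunit of both rings. LSM3A (AT1G21190) stood at 7.04 and 7.37 in wild type on ABA, against 6.25 and 6.17 without ABA. LSM3B (AT1G76860) stood at 8.20 and 8.08 on ABA, against 7.04 and 7.35 without it. For both genes each array with ABA lay above each array without it. LSM3A averaged 7.20 ± 0.24 on ABA and 6.21 ± 0.059 without (mean ± SD, n = 2 each), a difference of 0.99 ± 0.22 (SE) or 1.98-fold. For LSM3B the averages were 8.14 ± 0.084 and 7.20 ± 0.22, a difference of 0.95 ± 0.29 or 1.93-fold. Within number 1 the differences were 0.78 for LSM3A and 1.16 for LSM3B, and within number 2 they were 1.20 and 0.73. The 8 fits that leave out 1 array gave differences of 0.82 to 1.15 for LSM3A and 0.79 to 1.10 for LSM3B, none of which passed. Leaving out a mutant array changed neither difference, with or without the block. With the block, leaving out either array of a mutant gave the same fit. With the block and 1 wild-type array left out, the difference was 0.75 to 1.23 for LSM3A and 0.61 to 1.28 for LSM3B. LSM3A did not pass without the second wild-type array of either medium. LSM3B did not pass without the first array lacking ABA, either wild-type array on ABA or either ahg3-1 array.

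LSM6, the other subunit common to both rings, also has a pair of genes here. LSM6A (AT3G59810) stood at 6.74 and 7.49 in wild type on ABA, against 6.30 and 6.63 without, a difference of 0.65 ± 0.30. Its groups did not overlap, and the difference was 0.44 within number 1 and 0.86 within number 2 (limma, adjusted p = 0.46, or 0.052 with the block). Without the first wild-type array on ABA the LSM6A difference was 1.02, and without the second 0.28. With the block these 2 values were 0.875 and 0.42. LSM6B stood at 7.49 and 6.95 on ABA, against 7.23 and 7.08 without. The LSM6B groups overlapped, with a difference of 0.062 ± 0.27 that was 0.26 within number 1 and -0.14 within number 2.

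LSM1, which marks the cytoplasmic ring, had small fitted differences. No LSM8 gene is among the members, so the rings cannot be compared. LSM1A stood at 8.00 and 8.75 in wild type on ABA, against 8.21 and 8.41 without, and LSM1B at 7.26 and 6.67 on ABA, against 7.08 and 7.15 without. In both genes the arrays with ABA lay on either side of those without it. The differences were 0.065 ± 0.295 for LSM1A and -0.15 ± 0.25 for LSM1B, with opposite signs in the 2 replicate numbers for each gene. Whether the copies of LSM1, LSM3 or LSM6 differ from each other in their response was not tested.

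**Figure D1:**
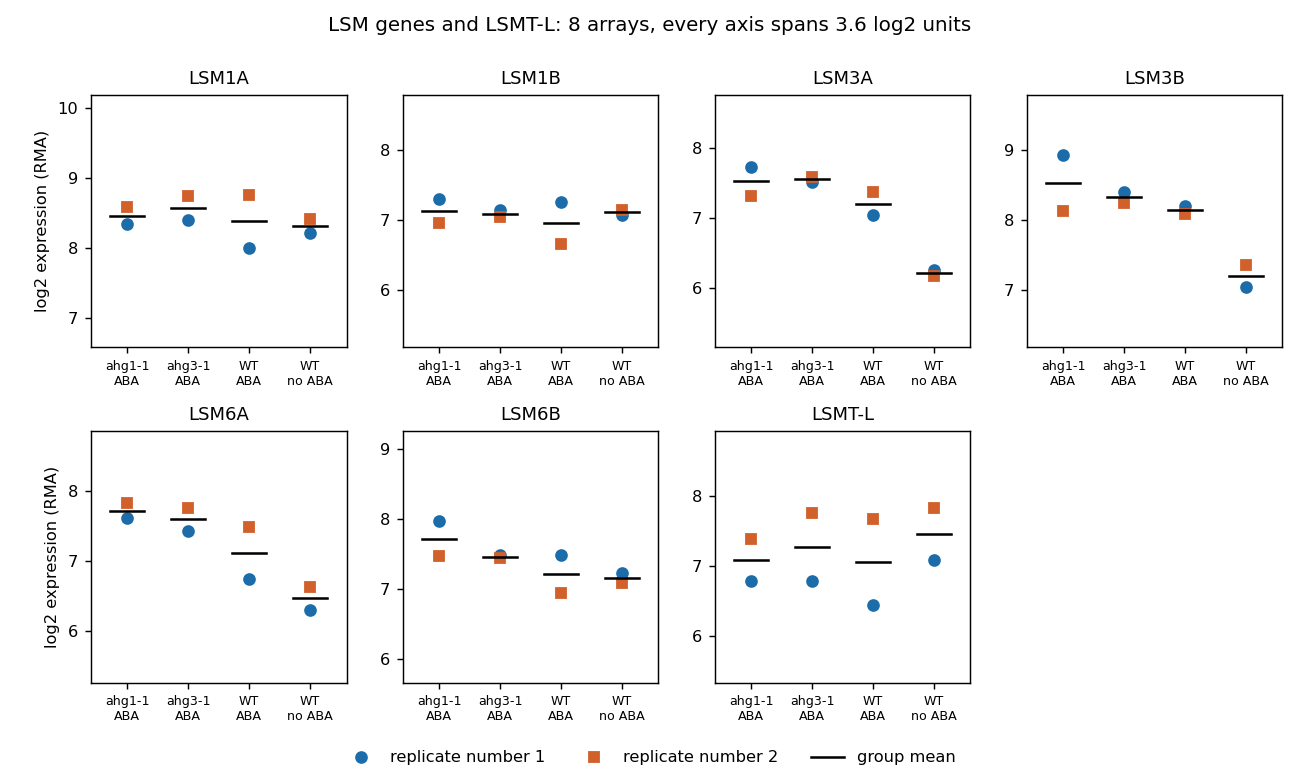
Log2 expression (vertical axis, RMA) of the 6 LSM genes and LSMT-L on the 8 arrays, by group. Circles are replicate number 1, squares number 2, and bars group means. LSM3A and LSM3B stood at 7.04 to 8.20 in wild type on ABA and at 6.17 to 7.35 without ABA, with no overlap within either gene.

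Pol IV and Pol V each had their seventh-subunit gene measured, an RPB7-like subunit. NRPD7 of Pol IV stood at 5.02 and 5.13 in wild type on ABA, against 4.69 and 4.51 without, a difference of 0.47 ± 0.20 with no overlap (limma, adjusted p = 0.38). NRPE7 of Pol V stood at 6.17 and 6.95 on ABA, against 5.86 and 6.22 without. Its groups overlapped, since the first array on ABA lay just below the second one without ABA. The difference for NRPE7 was 0.52 ± 0.34, at 0.31 within number 1 and 0.73 within number 2 (limma, adjusted p = 0.69, or 0.083 with the block). NRPD7 was among the 3 dimmest members, with NRPC1 and NRPB9A: their means over the 8 arrays, 5.07, 5.25 and 5.44, lay below the array medians, and the table gives no detection calls.

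NRPB7, the Pol II counterpart of these subunits, stood at 7.37 and 7.62 in wild type on ABA and 7.49 and 7.20 without, and the groups overlapped. NRPB9A and NRPB9B encode a small subunit that the gene table also lists for Pol IV and Pol V. NRPB9A stood at 5.36 and 5.29 on ABA, against 5.18 and 5.13 without. Its difference was only 0.17 ± 0.18 although the groups did not overlap. NRPB9B stood at 6.32 and 7.17 on ABA, against 6.48 and 6.84 without, and differed by 0.087 ± 0.36. NRPB12, a small subunit common to the polymerases, stood at 8.44 and 8.11 on ABA, against 7.87 and 7.98 without, and differed by 0.35 ± 0.225 with no overlap (limma, adjusted p = 0.69).

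In all, 6 of the 19 members had both arrays on ABA above both arrays without it, namely NRPB9A, NRPB12, NRPD7, LSM3A, LSM3B and LSM6A, where 18.4% of all probe sets did. None lay wholly below, where 3181 of the 22246 probe sets did. Higher within both replicate numbers were 10 members, against 38.5% of all probe sets. The median difference of the members was 0.20, from -0.41 for LSMT-L to 0.99 for LSM3A, beside 0.054 over all probe sets. Taken within number 1 that median was 0.17, and within number 2 it was 0.36. It moved to -0.034 without the first array lacking ABA and to 0.40 without the second. Without the first wild-type array on ABA it was 0.53, and without the second 0.021. These fits have no block, so a group left with 1 array differs from the other in replicate number too.

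For the large subunits the arrays of each wild-type group lay further apart than the group means. NRPA1, the largest subunit of Pol I, stood at 5.41 and 6.91 in wild type on ABA, against 5.34 and 6.55 without ABA. NRPA2, the second-largest, stood at 7.13 and 8.14 on ABA, against 7.05 and 7.92 without. Each group held 1 low and 1 high array, and the low one was number 1 in both groups. The differences with ABA were 0.22 ± 0.72 for NRPA1 and 0.15 ± 0.58 for NRPA2, and all 4 within-number values lay between 0.068 and 0.36. NRPC1 and NRPC2 encode the largest and the second-largest subunits of Pol III. NRPC1 stood at 4.46 and 5.56 on ABA and 5.10 and 5.32 without. NRPC2 stood at 5.27 and 7.20 on ABA and 5.05 and 6.74 without. Their differences were -0.20 ± 0.51 and 0.34 ± 0.93, and again number 1 was the low array in both groups.

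NRPB6A and NRPB6B encode a small subunit shared by the polymerases. NRPB6A (AT5G51940) stood at 5.61 and 8.42 in wild type on ABA, against 6.01 and 7.62 without ABA. NRPB6B stood at 6.14 and 8.05 on ABA, against 6.34 and 7.35 without. For both genes the arrays on ABA lay outside those without it on both sides. The difference was -0.39 within number 1 and 0.80 within number 2 for NRPB6A, and -0.20 and 0.70 for NRPB6B. The fitted differences of 0.20 ± 1.08 and 0.25 ± 0.69 average values of opposite sign.

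**Figure D2:**
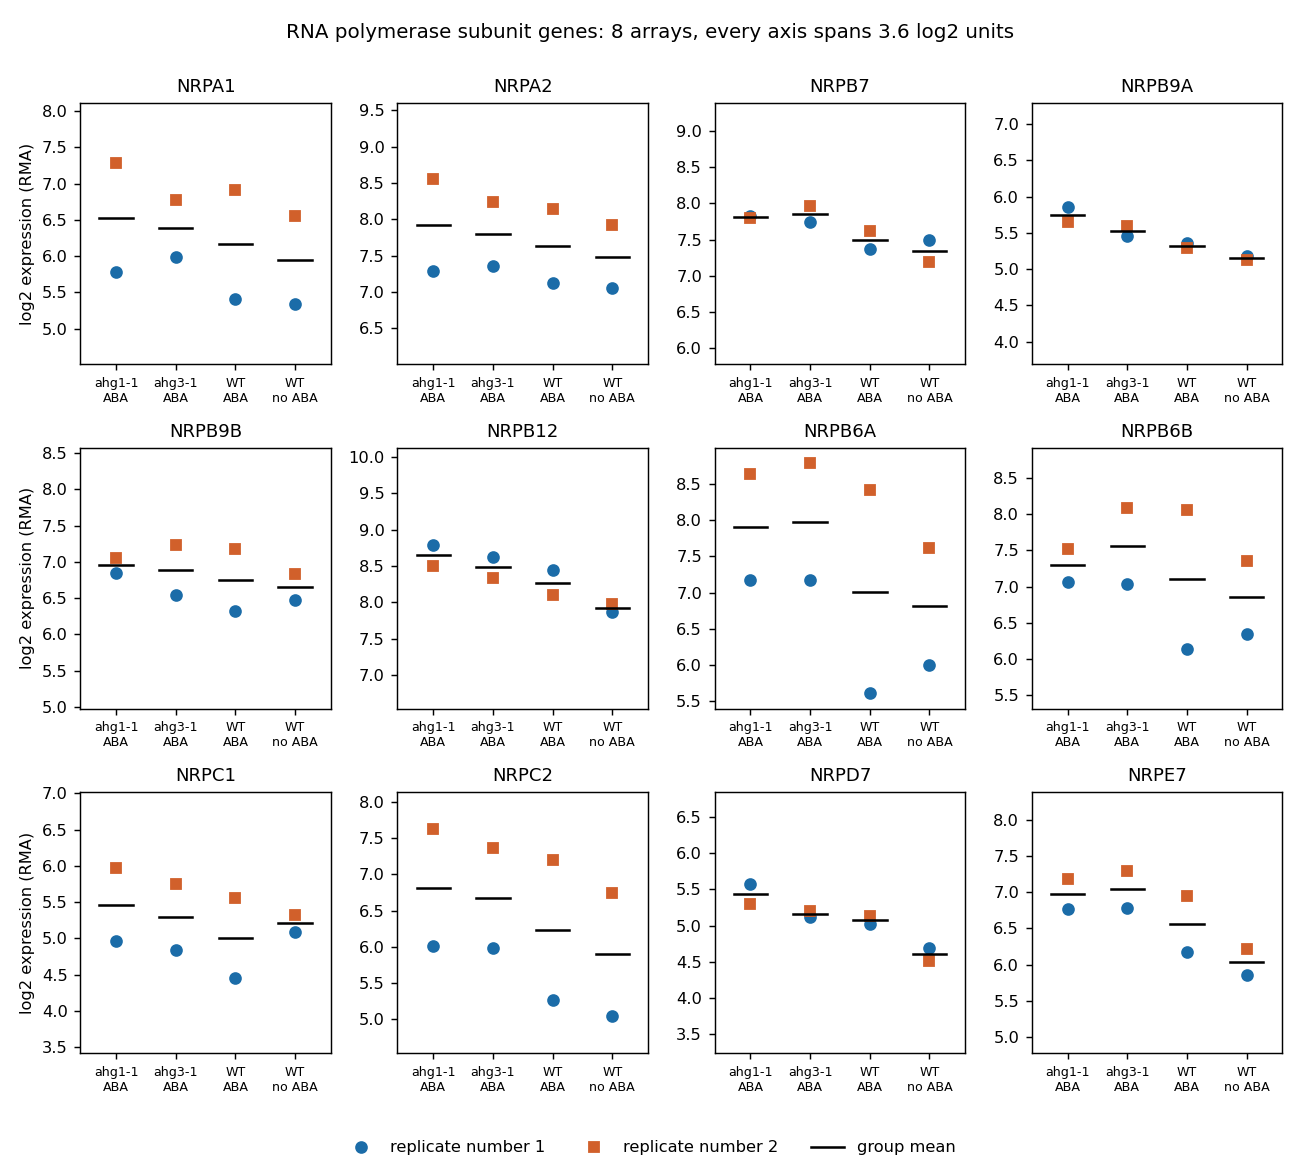
Log2 expression (vertical axis, RMA) of the 12 polymerase subunit genes on the 8 arrays, by group. Circles are replicate number 1, squares number 2, and bars group means. In NRPA1, NRPA2, NRPB6A, NRPB6B, NRPC1 and NRPC2 number 2 lay above number 1 in all 4 groups.

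Because these genes lay so far apart between the replicate numbers, the difference between numbers was estimated from the fit that holds it as a block, a step added after the values were seen. Number 2 was higher than number 1 for 11 of the 19 members (limma, adjusted p between 0.00073 and 0.048) and lower for 0, against 20.3% of all probe sets higher and 17.4% lower. NRPC2 differed by 1.65 ± 0.12 (SE), NRPB6A by 1.87 ± 0.22, NRPA1 by 1.24 ± 0.15, NRPB6B by 1.11 ± 0.215, NRPA2 by 1.003 ± 0.115 and NRPC1 by 0.82 ± 0.16. Both Pol I genes, both Pol III genes and both NRPB6 genes were thus among the 11. LSMT-L (0.88), NRPB9B (0.52), NRPE7 (0.51), LSM6A (0.41) and LSM1A (0.39) made up the rest, each higher in number 2 in all 4 groups. The other 8 members lay between -0.31 for LSM6B and 0.041 for NRPB7. The count was 7 when any wild-type array on ABA or any ahg3-1 array was left out. NRPB9B, LSM6A and LSM1A passed while NRPB9A, LSM6B and LSM1B did not, and whether the copies differ was not tested.

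**Figure D3:**
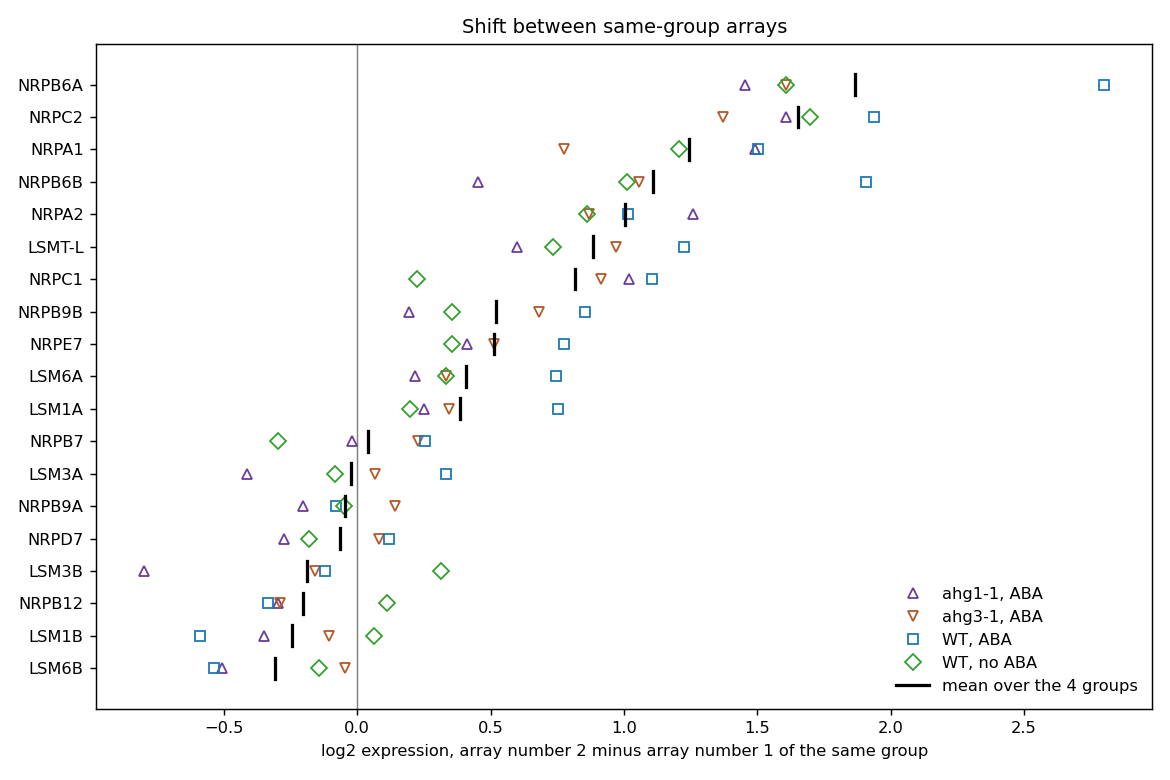
Difference between the number 2 and the number 1 array of the same group (horizontal axis, log2), for each of the 19 members, sorted by the mean over the 4 groups (black bars). Symbols are the 4 groups. NRPB6A, NRPC2 and NRPA1 are at the top with means of 1.87, 1.65 and 1.24, and LSM6B at the bottom with -0.31.

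The second comparison set ahg1-1 against wild type, both on ABA. All 19 members had a positive difference, where 52.3% of all probe sets did, and none passed over all probe sets (limma, adjusted p = 1 for each member, to 2 digits). The share of all probe sets that passed was 0%, and it was 0.0135% once the replicate number was added as a block, which also called 0 members (limma, adjusted p between 0.51 and 0.98). Below an unadjusted p of 0.05 lay 0 members and 1.47% of all probe sets. The member median was 0.37, beside 0.012 over all probe sets. Taken within number 1 it was 0.50, and within number 2 0.23. It moved to 0.027 without the first wild-type array on ABA, to 0.63 without the second, and to 0.21 without the second ahg1-1 array. Without that first wild-type array NRPA1, NRPA2, NRPB9B, NRPB6A, NRPB6B, NRPC1, NRPC2, LSM1A and LSMT-L turned negative, and the others stayed positive. The negative values ran from -0.76 for NRPB6B to -0.095 for NRPC1. These fits have no block, and a group left with 1 array differs from the other in replicate number too. All the genes that turned negative were among the members higher in number 2. Within both numbers NRPA1, NRPA2, NRPB6A, NRPC1 and NRPC2 were higher in ahg1-1, while NRPB9B, NRPB6B, LSM1A and LSMT-L had opposite signs.

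By class, the medians in ahg1-1 were 0.33 for the 2 Pol I genes, 0.52 for the 2 of Pol III and 0.385 for the 2 of Pol IV and V. They were 0.35 for the 6 LSM genes, 0.38 for the 3 shared subunits (NRPB6A, NRPB6B and NRPB12) and 0.32 for the 3 counted under Pol II. Those under Pol II were NRPB7, NRPB9A and NRPB9B, although the NRPB9 subunit is also listed for Pol IV and Pol V. NRPB6A had the largest difference: it stood at 7.17 and 8.63 in ahg1-1, against 5.61 and 8.42 in wild type. The groups overlapped, and the difference of 0.89 ± 1.08 was 1.56 within number 1 and 0.21 within number 2. NRPB6B stood at 7.06 and 7.52 in ahg1-1 and 6.14 and 8.05 in wild type, and had 0.92 within number 1 and -0.53 within number 2. NRPC2 stood at 6.01 and 7.62 in ahg1-1 and 5.27 and 7.20 in wild type, a difference of 0.58 ± 0.93 with the same sign in both numbers.

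LSM6A stood at 7.60 and 7.82 in ahg1-1, against 6.74 and 7.49 in wild type, a difference of 0.60 ± 0.30 with no overlap. LSM6B stood at 7.97 and 7.47 in ahg1-1, against 7.49 and 6.95 in wild type. The LSM6B groups overlapped by a narrow margin, and the difference of 0.50 ± 0.27 was nearly equal in both numbers, at 0.49 and 0.52. LSM3A, which had the lowest p with ABA in wild type, stood at 7.72 and 7.31 in ahg1-1, against 7.04 and 7.37 in wild type. Its difference of 0.32 ± 0.22 was 0.69 within number 1 and -0.057 within number 2. LSM3B stood at 8.92 and 8.13 in ahg1-1 and 8.20 and 8.08 in wild type, with 0.72 within number 1 and 0.042 within number 2.

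Among the genes with little spread, NRPB9A stood at 5.85 and 5.65 in ahg1-1, against 5.36 and 5.29 in wild type, a difference of 0.42 ± 0.18. NRPB12 stood at 8.80 and 8.50 in ahg1-1, against 8.44 and 8.11 in wild type, with 0.36 and 0.395 within the 2 numbers. NRPB7 stood at 7.82 and 7.80 in ahg1-1, against 7.37 and 7.62 in wild type. These 3 genes had no overlap between the groups, as had LSM6A and NRPD7, which differed by 0.36 ± 0.20. That made 5 of 19 members wholly above wild type, where 11% of all probe sets were. Wholly below were 0 members, against 1927 of the 22246 probe sets. Higher within both numbers were 14 members, against 31.3% of all probe sets, and 5 had opposite signs: NRPB9B, NRPB6B, LSM1A, LSM3A and LSMT-L.

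The third comparison set ahg3-1 against the same wild-type arrays on ABA, so its values share those arrays with the second. Again 0 members passed (limma, adjusted p = 1 for each, to 2 digits), as did 0% of all probe sets, and with the replicate number as a block the counts were also 0 members and 0%. Below an unadjusted p of 0.05 lay 0 members and 0.0809% of all probe sets. The 19 differences ranged from 0.079 for NRPD7 to 0.96 for NRPB6A, with a median of 0.22 beside 0.0027 over all probe sets. The median was 0.38 within number 1 and 0.19 within number 2. Without the first wild-type array on ABA it was 0.020, and without the second 0.57. It was 0.49 without the first ahg3-1 array and 0.125 without the second. These fits also have no block, so the replicate numbers are unequal.

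NRPB6A stood at 7.18 and 8.78 in ahg3-1, against 5.61 and 8.42 in wild type, with 1.56 within number 1 and 0.37 within number 2. NRPB6B stood at 7.03 and 8.09 in ahg3-1, against 6.14 and 8.05 in wild type, with 0.89 and 0.034. In both genes the first wild-type array was the lowest of the 4, and the second lay within 0.37 of its ahg3-1 partner. NRPC2 stood at 5.99 and 7.36 in ahg3-1 and 5.27 and 7.20 in wild type, and differed by 0.44 ± 0.93.

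NRPE7 stood at 6.78 and 7.30 in ahg3-1, against 6.17 and 6.95 in wild type, a difference of 0.48 ± 0.34 that was 0.61 within number 1 and 0.35 within number 2. NRPD7 stood at 5.11 and 5.20 in ahg3-1, against 5.02 and 5.13 in wild type, and differed by less than its SE of 0.195. LSM6A stood at 7.43 and 7.76 in ahg3-1, against 6.74 and 7.49 in wild type, and differed by 0.48 ± 0.30 with overlap. Both LSM3 genes had no overlap here: LSM3A stood at 7.51 and 7.58 in ahg3-1, against 7.04 and 7.37 in wild type. LSM3B stood at 8.40 and 8.25 in ahg3-1, against 8.20 and 8.08 in wild type. Their differences were 0.34 ± 0.22 and 0.18 ± 0.29. With NRPB7 and NRPB9A they made 4 members wholly above wild type, where 7.39% of all probe sets were. Higher within both numbers were 15 members, against 30.8% of all probe sets, and NRPA1, LSM1A, LSM1B and LSM6B had opposite signs.

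The fourth comparison set ahg1-1 against ahg3-1 on ABA, which tests whether the mutations had different effects. None of the 19 members passed (limma, adjusted p = 1 for each, to 2 digits) where 0% of all probe sets did, and 0 passed with the block where 0.0045% did. Below an unadjusted p of 0.05 lay 0 members and 0.414% of all probe sets. Differences ran from -0.27 for NRPB6B to 0.28 for NRPD7, with a median of 0.12 beside 0.013 over all probe sets. The median was 0.12 within number 1 and -0.083 within number 2, and it turned to -0.038 without the second ahg1-1 array and -0.24 without the first ahg3-1 array. Without the second ahg3-1 array it was 0.285. These fits also have no block, so the replicate numbers are unequal. NRPD7 stood at 5.57 and 5.29 in ahg1-1, against 5.11 and 5.20 in ahg3-1, a difference of 0.28 ± 0.20. NRPB9A stood at 5.85 and 5.65 in ahg1-1, against 5.45 and 5.59 in ahg3-1, a difference of 0.23 ± 0.18. These were the only 2 members with no overlap, where 11.3% of all probe sets were wholly higher and 1596 of the 22246 wholly lower. Higher within both numbers were 7 members, against 29.8% of all probe sets. NRPB6A was nearly level, at -0.00098 within number 1 and -0.155 within number 2, while NRPB6B had 0.035 and -0.57.

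**Figure D4:**
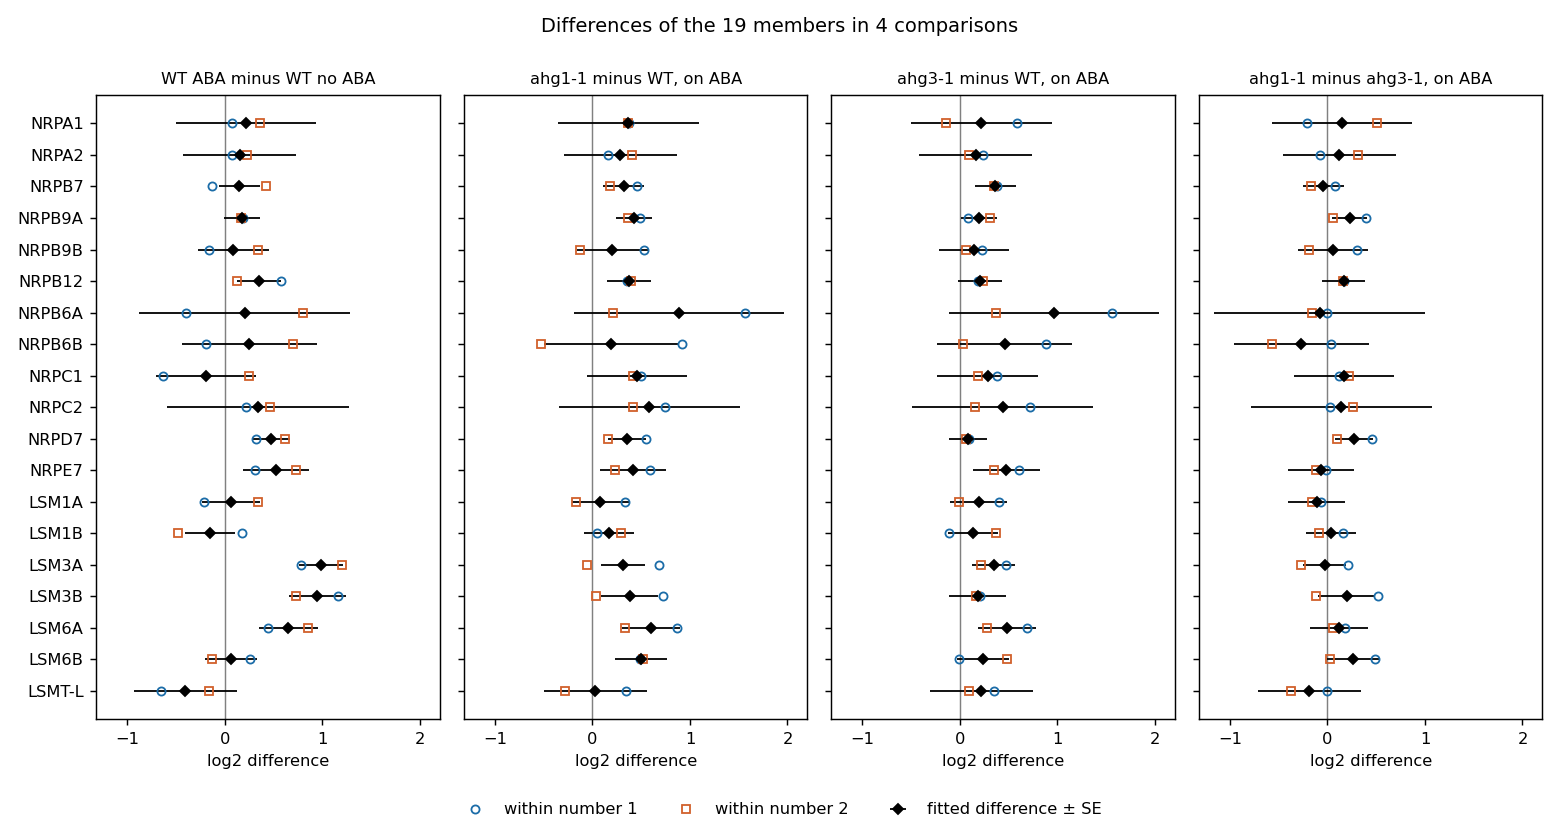
Log2 differences (horizontal axes) of the 19 members in the 4 comparisons. Diamonds are fitted differences with their SE, and open circles and squares the differences within replicate numbers 1 and 2. LSM3A and LSM3B lie furthest right in the ABA panel at 0.99 and 0.95, and NRPB6A in both panels against wild type at 0.89 and 0.96, with a wide error.

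LSMT-L, the methyltransferase-like gene, had the lowest difference of the 19 with ABA. It stood at 6.44 and 7.67 in wild type on ABA, against 7.10 and 7.83 without ABA, and was the only member lower within both numbers. Its difference was -0.41 ± 0.53 (limma, adjusted p = 0.92). In ahg1-1 and ahg3-1 it differed from wild type by 0.032 ± 0.53 and 0.22 ± 0.53. Leaving it out changed the member medians to 0.21 with ABA, 0.37 in ahg1-1, 0.23 in ahg3-1 and 0.12 between the mutants.

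Few partners of these complexes had a probe set named here. Of lists of general transcription and elongation factors, messenger RNA decay partners and spliceosome partners, 5, 2 and 1 genes were measured, and 0 of them passed in any comparison, with or without the block. MED31, a subunit of the Mediator complex that bridges factors and Pol II, averaged 6.85 in wild type on ABA and 6.31 without, a difference of 0.55 ± 0.21 (limma, adjusted p = 0.34). IYO, which binds Pol II and promotes elongation, differed with ABA by 0.74 ± 0.34 (limma, adjusted p = 0.45). The Mediator genes MED6, MED9 and MED19A differed with ABA by 0.25 ± 0.20, 0.33 ± 0.57 and 0.066 ± 0.54. UPF3 of nonsense-mediated decay and RRP41 of the exosome differed with ABA by 0.50 ± 0.40 and 0.33 ± 0.36. LIS, a homologue of the splicing factor PRP4, differed by 0.64 ± 0.43 with ABA, at 0.60 and 0.68 within the 2 numbers. The lists of DNA methylation partners, organelle polymerases with sigma factors, and ribosome biogenesis genes had 0 members among the probe sets with 1 gene. Probe sets that were not named may hold some of them.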

How the data were processed

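Biotin-labelled RNA of 8 samples was hybridised to 1-colour arrays. The deposited values are log2 expression, 1 per probe set and array, made by RMA per the submitters' processing notes (version not given in the sources used here). RMA brings all arrays near 1 distribution, so a shift common to most genes is not visible. The deposited lower quartiles still ran from 4.565 to 4.678 in number 1 and from 4.462 to 4.545 in number 2. All 8 columns were used (0 left out), and 0 were identical.

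Groups and replicate numbers come from the titles. The free-text descriptions repeat 1 wording and were not used. Whether a group's arrays hold separate cultures is not labelled, so the spread behind each p-value may be technical. Having 2 arrays a group limits precision.

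A model with 1 mean for each of the 4 groups was fitted to 22246 probe sets by limma 3.58.1 (R 4.3.3, 4 residual degrees of freedom), with empirical Bayes moderation and no filter. Two-sided p-values were adjusted by Benjamini-Hochberg over all probe sets within a contrast, and calls are at an adjusted p below 0.05. Same-numbered arrays deviated together in all 6 pairs of groups (Pearson's r of 0.5 to 0.842, over probe sets, which are not independent replicates), a hint from the data rather than from the labels, so differences within each number and the fit with the replicate number as a block (3 residual degrees of freedom) stand beside the results. Alternatives were cyclic loess, the arrays of the 2 groups alone, a filter at a mean of 4, a trend in the moderation and each array left out. The effect of the number, and the block with 1 array left out, were added after the data were seen. How often the fits make false calls when same-numbered arrays deviate together was not tested.

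Genes were named from the platform annotation, and all 19 members were found in the TAIR10.1 gene table. 503 probe sets with several genes and 8671 unlisted ones were not named. Every member is named. Of the other lists, called genes or the one with the smallest p per list were to be named; the other measured partners were added after their values were seen. The members and lists were chosen with earlier results of these data known.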

Additional observations from a re-analysis of the deposited data

How the results depend on the processing

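Of 988 alternative values of single members, 986 stayed on the same side of the threshold. The exceptions were LSM3A and LSM3B with ABA, called with the replicate number as a block. A sign changed in 85 values. Only cyclic loess, or leaving out an array of the 2 groups compared, could change a difference or its sign. Those fits with 1 array left out have no block, so the difference takes in part of the shift between replicate numbers. NRPA1 in ahg1-1 was 0.37 within number 1 and 0.36 within number 2, but -0.38 without the first wild-type array on ABA. A sign change in such a fit cannot be told apart from that shift. A difference with opposite signs in the 2 replicate numbers has no settled direction. The ABA differences of LSM3A, LSM3B and LSM6A kept their sign with each wild-type array left out. Leaving out a mutant array cannot change them. The count of members called in the ABA comparison was 2 with the replicate block and 0 in the other settings without a block. With the block and 1 wild-type array left out, LSM3A differed with ABA by 0.75 to 1.23 and LSM3B by 0.61 to 1.28. LSM6A differed by 0.42 to 0.875. In these fits neither LSM3A nor LSM3B was called each time. In the other 3 comparisons the count of members called was 0 in each setting run. Of all probe sets the block called 2799 with ABA, 3 in ahg1-1 against wild type and 1 between the mutants, in place of 305, 0 and 0. With only the 4 wild-type arrays 33 passed, and leaving out 1 array gave 51 to 388. Without a block, the member median ran from -0.034 to 0.53 with ABA when 1 array was left out. It ran from 0.027 to 0.63 in ahg1-1, from 0.020 to 0.57 in ahg3-1 and from -0.24 to 0.29 between the mutants. Cyclic loess, the filter on dim probe sets, which kept all 19 members, and the trend changed no member's call. Averaging the probe sets of a gene was not run, since each member has 1 probe set. Having 2 arrays a group limits precision: the median SE of the members was 0.30, and 0.178 with the block.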
